A study of Homo sapiens with 6 samples.

Results

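CSMD1, CNTNAP2, TMEM132D, CDH8, CDH9 and CDH10 are 6 long genes, best known from neurons, that lie in stretches of the fibroblast genome listed for lamin B1 but not for LC3. They were chosen because the 5 longest lamin B1-only regions, of 254 in all, lie at these loci. The 20037 protein-coding genes named by RefSeq were not screened against the domain lists, and other genes in these regions were not placed. Lamin B1-only means inside the domains of both lamin B1 replicates and outside the domains of both LC3 replicates. Since the domain lists chose the genes, their shares in those lists are given as a description and were not tested. Chromatin immunoprecipitation followed by sequencing (ChIP-seq) had been done in IMR90 cells, a single human lung fibroblast line, left untreated and kept at 3% oxygen. The 6 samples were 2 replicates each for lamin B1, LC3 and input chromatin, and the 4 precipitated samples each came with a list of broad domains. The labels do not say whether replicates came from separate cultures, so their spread may be technical. The lists hold positions only, so read depth and signal height are unknown, and expression was not measured.

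Lamin B1 is a filament protein of the nuclear lamina, and the chromatin it contacts is mostly compact, late replicating and low in transcription. Long tissue-specific genes are often found in such chromatin in cell types that do not use them. LC3 is a ubiquitin-like protein that is joined to lipid on autophagosome membranes. CSMD1 encodes a very large transmembrane protein with CUB and sushi domains that can restrain complement. CNTNAP2 encodes CASPR2, a neurexin relative that clusters potassium channels beside the nodes of myelinated axons. TMEM132D encodes a single-pass membrane protein of the nervous system whose function is less well known. CDH8, CDH9 and CDH10 encode type II classical cadherins, calcium-dependent adhesion molecules that take part in the matching of synaptic partners.

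The genes share length, but not to the same degree. In hg19, CNTNAP2 spans 2305 kb on chromosome 7 (145.813 to 148.118 Mb), and CSMD1 spans 2059 kb on chromosome 8 (2.793 to 4.852 Mb). TMEM132D spans 832 kb on chromosome 12 (129.556 to 130.388 Mb), and CDH8 spans 385 kb on chromosome 16 (61.686 to 62.071 Mb). CDH10 (24.487 to 24.645 Mb) and CDH9 (26.881 to 27.039 Mb) span 158 kb each on chromosome 5. By the gene lengths of RefSeq, CNTNAP2 ranks 2, CSMD1 6, TMEM132D 116 and CDH8 502 among the 20037 protein-coding genes, whose median is 24.1 kb. CDH9 and CDH10 rank 1903 and 1907, and 3356 genes reach 100 kb, so the word giant fits the first genes better than these cadherins. RefSeq places no other protein-coding gene entirely inside any of the 6. It lists 11 non-coding genes or pseudogenes within CNTNAP2, 8 within CSMD1, 6 within TMEM132D, 2 within CDH8 and 0 within CDH9 and CDH10. CDH10 and CDH9 are adjacent in the order of protein-coding genes, with PRDM9 as the other neighbour of CDH10, and CDH8 is next to CDH11, a further type II cadherin.

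All 6 genes were covered mainly by lamin B1 domains and had no base in an LC3 domain. Each was at least 50% inside both lamin B1 lists, as were 45.8% of the 2830 windows of 1 Mb tiled over the stretches between the first and last domain of each chromosome. CSMD1, TMEM132D, CDH8, CDH9 and CDH10 lay 100% inside a domain of lamin B1 replicate 1 and 100% inside a domain of lamin B1 replicate 2. CNTNAP2 had 97.6% of its body in replicate 1 and 77.4% in replicate 2, a mean of 87.5 ± 14.3% (SD, n = 2). Each gene had 0% in LC3 replicate 1 and 0% in LC3 replicate 2. Both lamin B1 shares thus lay above both LC3 shares for all 6 genes, as they did for 12.1% of the 1 Mb windows; for the genes the choice of regions fixed this. Summed over 5897 kb of gene body, 5375 kb (91.1%) were lamin B1-only.

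The other rules were applied to the same windows. All 6 genes were at least 50% lamin B1-only, as were 3.50% of the 1 Mb windows and 4.32% of 14184 windows of 200 kb. None of the 6 genes was at least 50% inside LC3 domains in both replicates, against 46.8% of the 1 Mb windows. Among the 1297 windows of 1 Mb that were at least 50% inside both lamin B1 lists, 94.4% had at least 1 kb inside an LC3 domain of either replicate, and the 6 genes had 0 kb. Windows differ from genes in length, and the genes had been picked from the same lists, so nothing is read from these shares beyond the base rate.

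**Figure D1:**
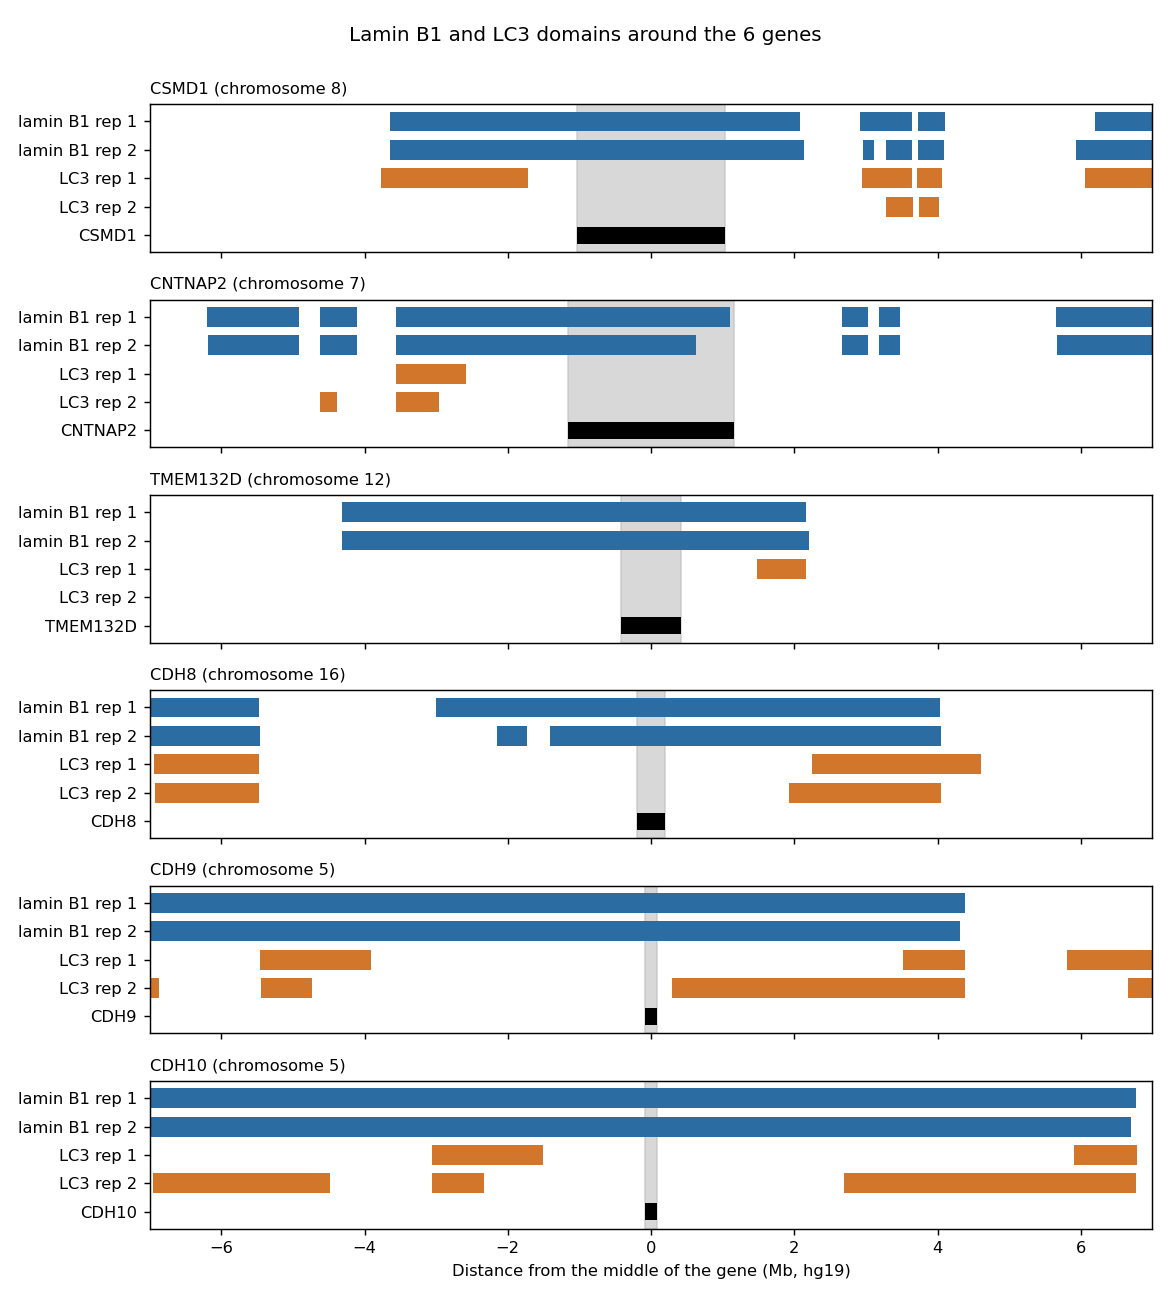
Domains of lamin B1 (blue) and LC3 (orange) in each replicate within 7 Mb of the middle of each gene, with the gene body as a black bar and grey band. The blue bars cover 100% of 5 genes and stop within CNTNAP2, and no orange bar reaches a gene.

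The domain that held CSMD1 was the first of chromosome 8 in both lamin B1 lists. It ran from 183001 to 5904000 in replicate 1 (5.72 Mb) and from 180001 to 5960000 in replicate 2 (5.78 Mb). The gene began 2610 and 2613 kb above its low edge and ended 1052 and 1108 kb below its high edge, so both replicates placed the whole gene well inside. CSMD1 took up 36.0% and 35.6% of these domains. LC3 replicate 1 listed a domain from 50001 to 2100000, over the outer part of the lamin B1 domain and 693 kb short of the gene. LC3 replicate 2 listed no domain there, and its nearest was 2252 kb above the gene.

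CNTNAP2 was the only member cut by a lamin B1 edge. Its host domain began at 143400001 in both lamin B1 lists and ended at 148062000 in replicate 1 and at 147596000 in replicate 2. The first 1783 kb of the gene (77.4%) were in both lists, the next 466 kb (20.2%) in replicate 1 alone, and the last 56 kb (2.43%) in no list. CNTNAP2 is transcribed from its low-coordinate end, so its start lay inside the domain in both replicates and its 3′ end lay outside. The start was 2249 and 1783 kb from the nearest lamin B1 edge, and the position of the exit differed by 466 kb between replicates. Both LC3 lists held a domain that began at the same base as lamin B1, 143400001, but it ended at 144380000 in replicate 1 and at 144009000 in replicate 2. The nearest LC3 domain was thus 1433 and 1804 kb from the gene.

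TMEM132D lay in the last domain of chromosome 12 in both lamin B1 lists. The domain began at 125664001 in both and ended at 132132000 (6.47 Mb) in replicate 1 and 132180000 (6.52 Mb) in replicate 2. The gene was 3892 kb above the low edge and 1744 and 1792 kb below the high edge. The LC3 lists differed here: replicate 1 had a domain of 0.68 Mb from 131450001 to 132130000, at the outer end of the lamin B1 domain and 1062 kb above the gene. LC3 replicate 2 had none up to the end of the chromosome, and its nearest domain was 13.3 Mb away on the low side.

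CDH8 lay in a lamin B1 domain whose low side differed between replicates. Replicate 1 listed a single domain from 58875001 to 65916000 (7.04 Mb), whereas in replicate 2 the domain with the gene ran from 60472001 to 65932000 (5.46 Mb) and a separate domain of 0.42 Mb lay before it. The distance from low edge to gene was therefore 2811 kb in replicate 1 and 1214 kb in replicate 2, and from gene to high edge 3845 and 3861 kb. LC3 domains covered the high end of the lamin B1 domain in both replicates, from 64125001 to 66480000 and from 63807001 to 65925000. They began 2054 and 1736 kb above CDH8, so both LC3 replicates left the gene out by a similar distance.

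CDH9 and CDH10 share 1 host domain and 1 lamin B1-only region and are not separate observations. The host was rank 9 by length in each lamin B1 list, from 17583001 to 31338000 in replicate 1 (13.8 Mb) and from 17584001 to 31272000 in replicate 2 (13.7 Mb). CDH10 lay near its middle, 6904 and 6903 kb from the low edge and 6693 and 6627 kb from the high edge. CDH9 lay 9298 and 9297 kb from the low edge and 4299 and 4233 kb from the high edge. No LC3 domain lay between the 2 genes in either replicate, although the LC3 lists differed on both sides of the pair. On the high side, LC3 replicate 2 listed 4.08 Mb from 27255001 to 31338000, while LC3 replicate 1 listed 0.87 Mb from 30475001 to 31345000. CDH9 was therefore 216 kb from an LC3 domain in replicate 2 and 3436 kb in replicate 1. On the low side, LC3 domains ended at 23055000 in replicate 1 and at 22230000 in replicate 2, which put CDH10 at 1432 and 2257 kb.

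The lamin B1-only regions around the genes formed the top of the length order by choice. Those at TMEM132D (5.79 Mb), at CDH9 and CDH10 (4.20 Mb), at CSMD1 (3.80 Mb), at CDH8 (3.33 Mb) and at CNTNAP2 (3.22 Mb) rank 1 to 5. The next, ranks 6 and 7, measured 2.83 Mb each, on chromosome 21 from 20883001 to 23716000 and on chromosome 8 from 33660001 to 36492000. Together the 5 regions held 20.3 Mb, or 16.1% of all lamin B1-only sequence. The region at TMEM132D made up 66.6% of the lamin B1-only sequence of chromosome 12, and the other 4 made up 31.5% to 38.3% of that of their chromosomes. CSMD1 filled 54.1% of its region and CNTNAP2 55.4%. TMEM132D filled 14.4%, CDH8 11.5%, and CDH9 and CDH10 3.76% each, so most of the sequence in these 3 regions lies outside the named genes.

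**Figure D2:**
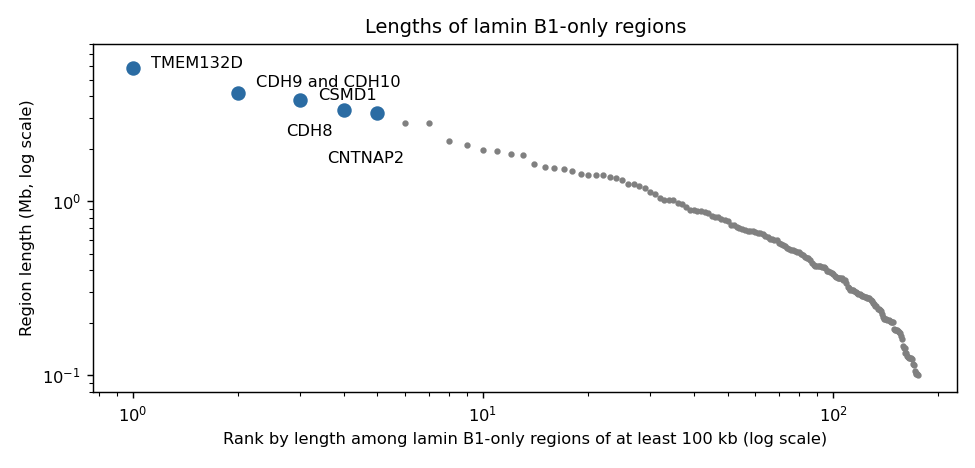
Length of each lamin B1-only region of at least 100 kb (Mb, log scale) against its rank (log scale), with the 5 regions that hold the genes in blue. These run from 3.22 to 5.79 Mb, and the next region measures 2.83 Mb.

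Single lists set most of the borders of these regions, and leaving out a list could only keep or lengthen a region. An LC3 edge of only 1 replicate bounded each of the 5 regions on at least 1 side. At CDH9 and CDH10, the low border came from LC3 replicate 1 and the high border from LC3 replicate 2. Without LC3 replicate 2 this region grew from 4.20 to 7.42 Mb (1.77-fold), and without LC3 replicate 1 to 5.03 Mb. Without LC3 replicate 1 the region at CSMD1 grew from 3.80 to 5.72 Mb and took in the whole consensus domain. Without lamin B1 replicate 2 the region at CDH8 grew from 3.33 to 4.93 Mb (1.48-fold). For the regions at TMEM132D and CNTNAP2, leaving out any 1 list gave 5.79 to 6.47 Mb and 3.22 to 3.68 Mb.

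LC3 was not missing from the lamin B1 domains that hold the genes, and it lay mainly at their ends. Consensus lamin B1 domains, the bases in both lamin B1 lists, numbered 597, and the 5 hosts held 35.5 Mb of their 1305 Mb. By length the hosts ranked 7 (CDH9 and CDH10), 43 (TMEM132D), 49 (CSMD1), 54 (CDH8) and 88 (CNTNAP2) of 597. LC3 replicate 1 covered 33.5% of the host of CSMD1, 23.4% at CNTNAP2, 10.5% at TMEM132D, 32.9% at CDH8 and 17.1% at CDH9 and CDH10. LC3 replicate 2 covered 0%, 14.5%, 0%, 38.7% and 52.7% of the same hosts. Summed over the 5 hosts the shares were 21.7% and 28.0%, and those of the other 592 consensus domains 83.6% and 89.9%. The hosts were picked for long stretches without LC3, so their low shares are part of the choice and not a finding. Of the 88 consensus domains at least as long as the shortest host (4.20 Mb), 16 had less than 50% of their length in both LC3 lists, and the median of the 88 was 100%. The 88 and the 16 both include the 5 hosts.

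**Figure D3:**
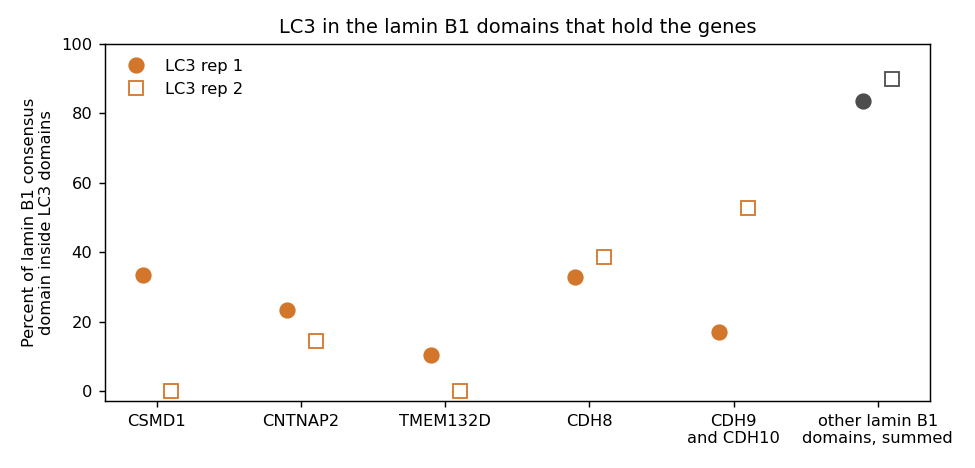
Percent of each host lamin B1 consensus domain inside LC3 domains of replicate 1 (filled circles) and replicate 2 (open squares), with the other 592 consensus domains summed in grey. The hosts, which were picked for long stretches without LC3, lie between 0% and 52.7%, and the grey points at 83.6% and 89.9%.

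At the end where it was present, LC3 usually stopped close to the outer edge of lamin B1. Lamin B1 edges here are those of the consensus domain, the inner of the edges of the 2 replicates. The distance between the 2 outer edges was 0 kb at the host of CNTNAP2 in both LC3 lists and 2 kb at the host of TMEM132D in LC3 replicate 1. The 0 kb edge is the same base in every lamin B1 and LC3 list, although bin sizes differ among lists. What set that shared base was not tested. LC3 reached 133 kb beyond the low edge of the host of CSMD1 in replicate 1, and 73 and 66 kb beyond the high edge of the host of CDH9 and CDH10. That high edge is the one of lamin B1 replicate 2. Lamin B1 replicate 1 ended at 31338000, the same base as LC3 replicate 2, and LC3 replicate 1 ended at 31345000. At the low end of that host, LC3 replicate 2 listed 2.48 Mb from 17610001 to 20088000, which began 26 kb inside the lamin B1 edge, and LC3 replicate 1 listed no domain there. At the host of CDH8, LC3 passed the high edge, set by lamin B1 replicate 1, by 564 kb in replicate 1 and by 9 kb in replicate 2. Lamin B1 replicate 2 ended at 65932000, beyond the end of LC3 replicate 2 at 65925000. The LC3 domains from 21505001 to 23055000 (replicate 1) and from 21513001 to 22230000 (replicate 2) in the host of CDH9 and CDH10 were the exception, with lamin B1 on both sides. The lamin B1-only region took up 1 end of the consensus domain at 4 of the 5 loci and its interior at CDH9 and CDH10. Among all 175 lamin B1-only regions of at least 100 kb, 49.7% took up an end, 7.43% the interior and 42.9% a whole consensus domain.

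How far the LC3 replicates agreed on the placement of LC3 differed among these hosts. The Jaccard index, the bases in both LC3 lists divided by those in either, was 0 in the hosts of CSMD1 and TMEM132D, 0.188 at CDH9 and CDH10, 0.621 at CNTNAP2 and 0.849 at CDH8. Over the 5 hosts it was 0.285, against 0.890 over the other consensus domains. The lamin B1 replicates differed by 0 to 66 kb at 8 of the 10 host edges, the exceptions being 466 kb at CNTNAP2 and 1597 kb at CDH8. The hosts were chosen with the same LC3 lists, so the index is given as a description.

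The starts of 5 of the genes could be placed by the strand that RefSeq gives, and all 5 lay 1599 kb or more inside both lamin B1 domains. TMEM132D, CDH8, CDH9 and CDH10 start at their high-coordinate end. From the gene start to the nearest lamin B1 edge, the 2 replicates gave 1744 and 1792 kb for TMEM132D, 3196 and 1599 kb for CDH8, 4299 and 4233 kb for CDH9, and 6693 and 6627 kb for CDH10. The order from nearest to farthest began with TMEM132D at 1.77 ± 0.0339 Mb, CNTNAP2 at 2.02 ± 0.33 Mb and CDH8 at 2.40 ± 1.13 Mb (SD, n = 2 each). The values of CDH8 spanned those of the other two, so these 3 cannot be ordered beyond their spread. CDH9 at 4.27 ± 0.0467 Mb and CDH10 at 6.66 ± 0.0467 Mb (SD, n = 2 each) followed, above all values of these 3. Both were measured to the same high edge of their shared host. Their order and their equal SD therefore follow from the gene positions and are not separate observations.

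**Figure D4:**
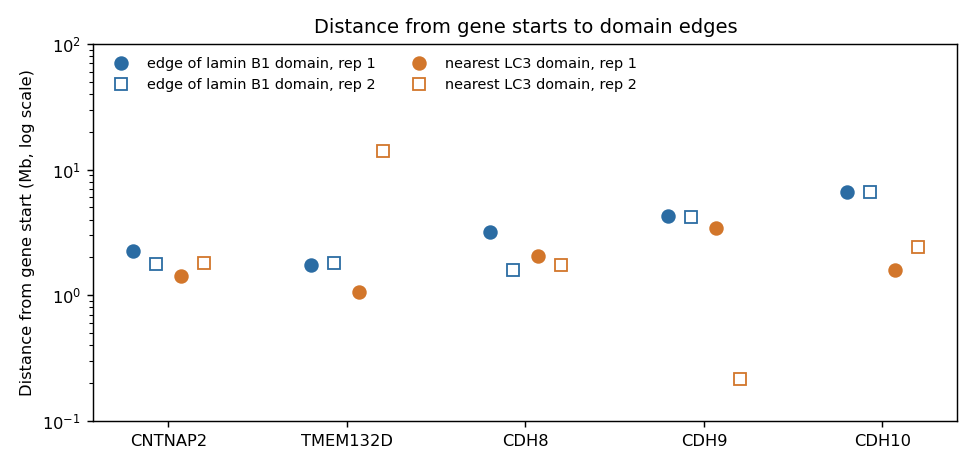
Distance (Mb, log scale) from the start of 5 genes to the nearest edge of the surrounding lamin B1 domain (blue) and to the nearest LC3 domain (orange) in replicate 1 (filled circles) and replicate 2 (open squares). The lamin B1 distances lie between 1.60 and 6.69 Mb, and the LC3 distances reach from 0.216 Mb at CDH9 to 14.1 Mb at TMEM132D, both in replicate 2.

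Promoter sequence, which played no part in the choice, differed widely among the genes. RefSeq promoters (GRCh38.p14, 250 bases before to 50 after the start, outermost start of a gene) were matched by symbol for 5 members; that of CSMD1 was not used here. The following 3 are on the minus strand and are shown because they are the most and the least CpG-rich of the set and the pair of neighbouring cadherins. Capitals mark CpG dinucleotides, the sites of DNA methylation.
TMEM132D: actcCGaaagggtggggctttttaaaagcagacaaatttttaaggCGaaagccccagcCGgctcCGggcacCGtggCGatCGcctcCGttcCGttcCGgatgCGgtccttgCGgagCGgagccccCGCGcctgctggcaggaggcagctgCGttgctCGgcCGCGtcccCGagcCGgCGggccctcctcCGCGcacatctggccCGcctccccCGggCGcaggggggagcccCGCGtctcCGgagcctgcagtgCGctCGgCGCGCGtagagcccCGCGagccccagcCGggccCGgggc
CDH9: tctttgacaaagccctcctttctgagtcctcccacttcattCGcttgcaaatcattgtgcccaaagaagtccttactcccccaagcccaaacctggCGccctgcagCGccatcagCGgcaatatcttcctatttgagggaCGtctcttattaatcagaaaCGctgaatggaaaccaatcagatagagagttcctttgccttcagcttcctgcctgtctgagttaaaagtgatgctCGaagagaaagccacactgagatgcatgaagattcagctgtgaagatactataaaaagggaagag
CDH10: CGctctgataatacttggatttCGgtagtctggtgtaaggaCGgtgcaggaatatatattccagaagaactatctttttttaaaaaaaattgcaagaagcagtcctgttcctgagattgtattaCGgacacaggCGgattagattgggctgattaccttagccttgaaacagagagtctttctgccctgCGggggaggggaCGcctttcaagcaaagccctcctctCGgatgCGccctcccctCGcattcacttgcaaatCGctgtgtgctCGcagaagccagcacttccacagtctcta
TMEM132D had 39 CpG dinucleotides and 73.3% G and C, which exceeded 91.5% and 87.6% of the 27324 promoters. CDH9 had 7 and 46.7%, above 37.5% and 24.6% of promoters, and CDH10 had 12 and 48.3%. CNTNAP2 with 16 CpG and 61.7% and CDH8 with 24 and 64.7% lay between them, and the medians of all promoters were 14 and 58.3%. The 5 promoters thus lay on both sides of the median. All 5 starts were lamin B1-only by choice and no other promoters were placed on the lists, so a relation to placement was not tested.

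Core promoter letters also varied. The letters TATAAA of the TATA box were searched on both strands and at any position, as were the motifs that follow. They were found in CDH9 alone among the 5 and in 12.0% of all promoters. In CDH9 they lay within the 50 bases after the start and not before it, so they are not called a TATA box here. The letters CCAAT were present in CDH8, CDH9 and CDH10 and in 35.7% of all promoters. The GC box GGGCGG was found in CNTNAP2 and CDH8 and in 44.5% of all promoters. The letters GAGAGA were in none of the 5 and in 22.4% of all. A match to such short letters describes the sequence and is not a binding site.

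CDH9 and CDH10 had in common a promoter stretch that is displaced relative to their starts, which was looked for after the sequences had been seen. The best ungapped match between the promoters, scored as +1 for an identical and -1 for a different base, covered 37 bases with 28 identical (75.7%). It is shown 5′ to 3′ with identical bases in capitals.
CDH9: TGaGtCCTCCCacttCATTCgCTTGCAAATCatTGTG
CDH10: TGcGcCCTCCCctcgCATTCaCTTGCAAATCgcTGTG
The stretch lay from 228 to 192 bases before the start of CDH9, but from 20 bases before to 17 after the start of CDH10. Its score of 19 exceeded the scores of the other 9 pairs of the 5 promoters, which ran from 9 to 12. Of the 27323 other promoters, 2 (0.00732%) matched CDH9 with a score of at least 19, and these were CDH10 and OSGEPL1-AS1, the latter named after its score was seen. For CDH10 the number was 6 (0.022%), CDH9 among them.

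**Figure D5:**
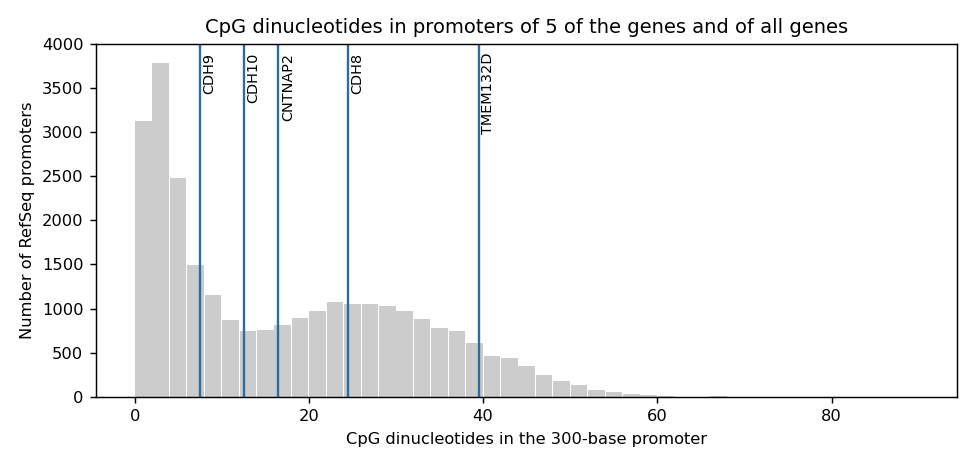
Number of CpG dinucleotides in 27324 RefSeq promoters (grey bars, bins of 2), with lines for 5 of the genes. The lines run from 7 in CDH9 to 39 in TMEM132D, on both sides of the median of 14.

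Relatives of the genes, named in lists of type II cadherins, CNTNAP, CSMD, TMEM132 and contactin genes, were not placed on the domain lists because their hg19 positions were not used here. RefSeq length set some of the members apart within these families. CNTNAP2 is the longest of 6 CNTNAP genes, CSMD1 of 3 CSMD genes and TMEM132D of 5 TMEM132 genes. The cadherins do not head their family: CDH8 is rank 3, CDH9 rank 6 and CDH10 rank 7 of 13 type II cadherins, after CDH18 (1104 kb) and CDH12 (1103 kb). Promoter CpG counts ran from 5 to 24 over the 8 type II cadherins with a promoter entry, with CDH8 at the top. In the TMEM132 family they ran from 16 to 42 over 4 genes, with TMEM132D at 39.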

How the data were processed

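Per the labels, chromatin of IMR90 cells was crosslinked, sheared and precipitated, and the submitters' processing notes name the tools Bowtie2, bedtools and bcl2fastq (2.16.0.10) and the build GRCh37/hg19. EDD, a caller for broad enrichment, appears in the names of the deposited lists; its settings and version are not given in the sources used. The authors deposited start and end positions per replicate, with no score. All edges were multiples of 3, 4, 5 and 3 kb in lamin B1 replicates 1 and 2 and LC3 replicates 1 and 2, so edges are no finer than that, and the caller can bridge or drop short stretches.

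Overlaps and distances were computed at 1 kb resolution (NumPy 2.4.6, Python 3.11.15). The 6 genes and their loci, rounded to 1 kb, were chosen with earlier results of these data known, as were the family lists. All 6 members are named. Functions that compute overlaps were checked on simulated intervals. No test was run, since the lists chose the genes. Windows were tiled from the first to the last domain of each chromosome. RefSeq tables of GRCh38.p14 gave names, gene order, lengths, strands and promoters, and none of their coordinates were used with the lists. Alternatives left out each list, joined or dropped short domains, used the union or same-numbered pairs of replicates, widened the genes by 100 kb and changed the share that counts. Protein sequences, input and read-level data were not analysed here.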

Additional observations from a re-analysis of the deposited data

How the results depend on the processing

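The lamin B1-only share of the 6 gene bodies, 91.1%, was 91.1% to 99.1% with each list left out in turn. It reached 99.1% without lamin B1 replicate 2 and with the union of replicates, because 466 kb of CNTNAP2 are in lamin B1 replicate 1 alone. It was 95.1% with the replicate block, which averages the pairs of lists that carry the same number. All 6 genes were at least 50% lamin B1-only under every alternative run at that share, and 5 were at least 80% so, all but CNTNAP2. The count of genes inside LC3 domains was 0 under all 7 alternatives run for it, a single base of the gene included. Of 80 alternative values, 75 moved by less than the SD of the same-numbered pairs, 5.59 percentage points (for counts, by less than 1.5 times), and the other 5 were the 2 of 99.1% above and 3 of CNTNAP2. Leaving out a list removes a condition, so it could only keep or raise a lamin B1-only share. The count of genes at least 50% lamin B1-only could not fall that way either. Genes deep inside domains had also been picked from these lists, so the alternatives are a weak check. Unknown depth limits what the absence of an LC3 domain can show.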
